A study of Sus scrofa with 20 samples.

Results

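Leukocyte adhesion and endothelial junction genes were followed in the kidneys of 20 pigs. The 6 genes were VCAM1, ICAM1, ITGB2, CLDN5, TIE1 and EGFL7, and they were chosen as all probe sets that the platform annotation assigns to these symbols. Each gene had a single probe set, so 6 of 23999 tested probe sets, and 6 of 6765 genes with a single symbol, are described. Each animal gave 1 array, a 1-colour Affymetrix design for pig, hybridized with kidney RNA.

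The control group (10 pigs) underwent a burr hole, placement of catheters and anaesthesia. The neurologic death (ND) group (10 pigs) had the same preparation and then a balloon inflated under the dura to produce ND. All animals were ventilated mechanically for 6 h after randomization, received 0.9% saline in boluses of 2 cc/kg to hold the mean arterial pressure above 35 mmHg, and then had a laparotomy in which 2 kidney specimens were frozen. The controls were therefore anaesthetized, operated and ventilated animals, not untouched ones. Breed, sex and age are not given in the sources used here. A name such as ND_47 gives an animal's group and its number.

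Leukocytes leave the blood by rolling on selectins, arresting on immunoglobulin-type ligands of the endothelium through their integrins, and passing between endothelial cells. VCAM1 and ICAM1 encode such ligands, and both are textbook targets of the transcription factor NF-kB in activated endothelium. In the kidney, tubular cells can express them as well. ITGB2 encodes the beta 2 integrin chain (CD18), which is carried by leukocytes and whose integrins bind ICAM1. CLDN5 encodes a claudin of endothelial tight junctions, TIE1 an orphan receptor tyrosine kinase of endothelium that modulates angiopoietin signalling through TEK, and EGFL7 a protein secreted by endothelial cells that acts on vessel formation.

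Values are log2 signals per probe set, on which a difference of 1 is a 2-fold change. Array medians lay between 5.15 and 5.35 in ND and between 5.09 and 5.28 in controls, and the number of arrays limits the precision. The kidney label was borne by the tissue markers: of 14 listed epithelial genes 3 were measured, and all were bright in both groups, with LRP2 (megalin of the proximal tubule) at 13.60 in ND and 13.35 in controls and the tubular potassium channel gene KCNJ1 at 10.2 and 10.7. Differences are ND minus control with 10 animals per group. Adjusted p-values are those of limma, Benjamini-Hochberg adjusted across the 23999 probe sets, and a gene is said to rise or fall where the adjusted p was under 0.05. In that comparison 7.13% of all probe sets passed, 913 higher in ND (3.8%) and 799 lower (3.33%). Of the genes with a single symbol 9.99% passed, 5.44% higher and 4.55% lower, and 30.1% had an unadjusted p under 0.05. The split depended on scaling: after equalizing array medians 36.6% of probe sets passed (1061 higher, 7728 lower), and after quantile normalization 8.81% (917 higher, 1198 lower).

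Of the 6 genes 4 rose in ND kidneys, VCAM1, ICAM1, ITGB2 and CLDN5, none fell, and TIE1 and EGFL7 did not pass. Over all genes 5.44% rose and 4.55% fell. The median of the 6 differences was 0.90, and that over all 6765 genes was -0.02. The 6 genes were chosen with earlier results of these data known, so neither their share nor their median is a test against all genes. For none of the 6 did the values of the groups separate completely, which they did with ND higher for 0.266% of all genes and with ND lower for 0.325%.

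**Figure D1:**
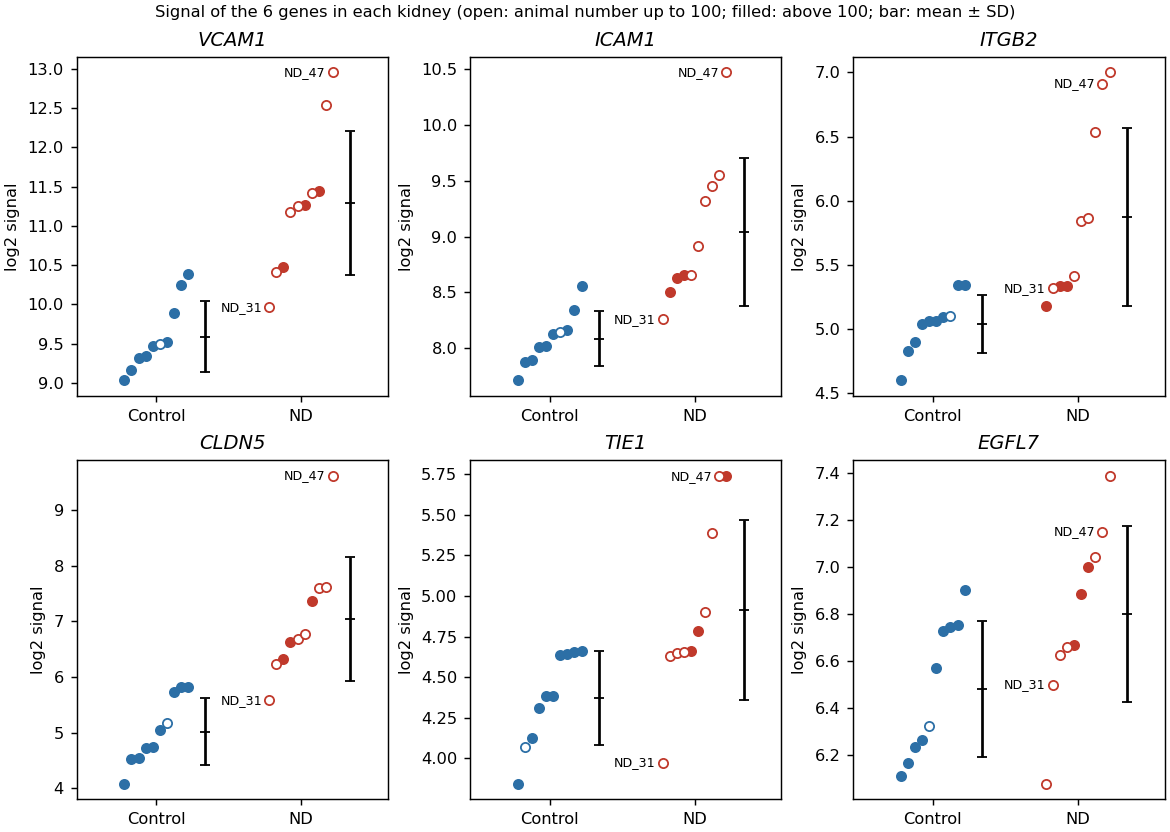
Log2 signal (y axis) of each gene in the 10 control and 10 ND kidneys, 1 point per animal in rising order, open for animal numbers up to 100 and filled for those above, with the mean ± SD beside them. ND_47 was the highest ND animal for VCAM1, ICAM1 and CLDN5, and ND_31 was the lowest for VCAM1, ICAM1, CLDN5 and TIE1.

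Among the endothelial ligands, VCAM1 had the smallest p of the 6 genes. The lowest, median and highest VCAM1 signals were 9.97, 11.26 and 12.96 in ND and 9.03, 9.48 and 10.39 in controls. Of the 10 ND animals 9 lay above the highest control, and ND_31, the exception, lay above 8 of the 10 controls. The difference was 1.70 ± 0.31 (SE), or 3.26-fold (95% interval 2.06 to 5.14), with an adjusted p of 0.00275. Leaving out any single animal kept VCAM1 between 1.52 and 1.85, with adjusted p-values up to 0.00618.

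ICAM1, whose product binds the beta 2 integrins, moved less. Its lowest, median and highest signals were 8.26, 8.79 and 10.47 in ND and 7.71, 8.07 and 8.56 in controls. ND_31 and ND_194 were within the control range and the other 8 ND animals above it. The rise was 0.96 ± 0.22 (SE), or 1.94-fold (95% interval 1.42 to 2.66), with an adjusted p of 0.0110. Without ND_47, the animal with the highest ICAM1, it was 0.80, the smallest value when single animals were left out.

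ITGB2, the leukocyte integrin chain on the other side of that contact, had lowest, median and highest signals of 5.18, 5.63 and 6.999 in ND and 4.60, 5.07 and 5.34 in controls. The ND values were uneven: ND_22, ND_47 and ND_01 stood at 6.999, 6.91 and 6.53, ND_86 and ND_92 at 5.87 and 5.84, and the other 5 between 5.18 and 5.42. The rise was 0.83 ± 0.22 (SE), or 1.78-fold (95% interval 1.29 to 2.47), with an adjusted p of 0.0286. The call was lost without ND_01, Control_157 or Control_187, where the adjusted p reached up to 0.0526. Of the leukocyte markers 17 of 26 listed were measured: 6 rose (CD3E, LCK, CORO1A, LCP1, LAPTM5 and TYROBP), 1 fell and 10 did not pass, with a list median of 0.41, where 5.44% of all genes rose and 4.55% fell. CD3E exceeded background on 5 ND arrays and no control array, and the filter on dim probe sets removed it. With a term for animal number 1 of the 17 passed, CD163. The gene that fell, CD163, encodes a scavenger receptor of resident macrophages and was at -2.04. Their summed log2 signal ran from 73.4 to 94.6 in ND and from 72.2 to 81.5 in controls. The leukocyte common antigen PTPRC read 3.47 in ND and 3.38 in controls (adjusted p = 0.482), and S100A8, S100A12 and CD79B were at background on all arrays. The part of leukocyte number in the ITGB2 result was not tested, and in bulk tissue more cells of a type and more RNA per cell cannot be told apart.

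CLDN5, the junction gene, had the largest difference of the 6. Its lowest, median and highest signals were 5.58, 6.73 and 9.62 in ND and 4.09, 4.89 and 5.82 in controls. ND_31 was within the control range, the other 9 ND animals were above it, and ND_47 stood well above the next highest ND animal, ND_92 at 7.61. The rise was 2.02 ± 0.39 (SE), or 4.06-fold (95% interval 2.31 to 7.14), with an adjusted p of 0.00370. Without ND_47 it was 1.74, and over all animals left out singly the adjusted p reached up to 0.00836.

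TIE1 and EGFL7 did not pass. TIE1 signals were 3.97, 4.72 and 5.74 (lowest, median, highest) in ND and 3.85, 4.38 and 4.66 in controls. ND_31 was low, below 9 of the 10 controls, while 6 ND animals were above the highest control. The difference was 0.54 ± 0.19 (SE; 95% interval 0.14 to 0.94), with an adjusted p of 0.0933. Without ND_31 TIE1 was at 0.64 and passed (adjusted p = 0.0285).

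EGFL7 signals were 6.08, 6.78 and 7.39 (lowest, median, highest) in ND and 6.11, 6.45 and 6.90 in controls. The groups overlapped widely, with 4 ND animals above the highest control and ND_22 below every control. The difference was 0.32 ± 0.15 (SE; 95% interval 0.01 to 0.63), with an adjusted p of 0.155.

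The spread between animals was wider in ND for each of the 6 genes. The SD over ND animals divided by that over controls ran from 1.29 for EGFL7 to 3.11 for ITGB2, with 2.71 for ICAM1, 2.05 for VCAM1, 1.94 for TIE1 and 1.82 for CLDN5. Over all genes the median of this ratio was 1.19 and its quartiles 0.884 and 1.67, and ND animals varied more for 65.4% of genes. Among animals numbered above 100 (3 ND, 9 control) the wider spread did not hold for every gene. There the SDs in ND and controls were 0.08 and 0.26 for ICAM1, 0.09 and 0.24 for ITGB2, 0.53 and 0.64 for CLDN5 and 0.17 and 0.30 for EGFL7. For VCAM1 they were 0.51 and 0.47, and for TIE1 0.59 and 0.28.

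Animal numbers were uneven between the groups. Of the ND animals 7 were numbered up to 100, against 1 control, Control_02. The labels do not say what the numbers mark. With a term for this split none of the 6 genes passed (2.1% of all probe sets did): VCAM1 was at 1.58 (adjusted p = 0.0502), CLDN5 at 1.83 (adjusted p = 0.0660), ICAM1 at 0.68 (adjusted p = 0.214) and ITGB2 at 0.47 (adjusted p = 0.463). TIE1 was at 0.69 (adjusted p = 0.168) and EGFL7 at 0.38 (adjusted p = 0.381). The values of ICAM1 and ITGB2 were further from those without the term than the values of VCAM1 and CLDN5 were.

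The comparison was also made within the 3 ND and 9 control animals numbered above 100. VCAM1 read 11.1 ± 0.51 (SD, n = 3) in those ND animals and 9.60 ± 0.47 (SD, n = 9) in those controls, and CLDN5 read 6.77 ± 0.53 (SD, n = 3) and 5.002 ± 0.64 (SD, n = 9), with no overlap for either gene. For both, a two-sided exact permutation test gave p = 0.00455, the smallest value this design allows. TIE1 gave the same exact permutation p, but its highest control and lowest ND animal both read 4.66 when rounded. Groups with ND higher were also fully separated for 2.25% of all genes here, and with ND lower for 3.22%. ICAM1 had an exact permutation p of 0.00909, EGFL7 of 0.0773 and ITGB2 of 0.105. These 6 p-values are unadjusted, and none of the 6 genes had an adjusted p under 0.05 in limma among these animals, where 1.11% of probe sets did.

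The mean of ITGB2 was lower in the ND animals numbered above 100 than in the other ND animals, a gap that was not tested. Its signal was 5.28 ± 0.09 (SD, n = 3) in ND animals numbered above 100 and 5.03 ± 0.24 (SD, n = 9) in controls numbered above 100, while the 7 low-numbered ND animals averaged 6.13. The ND values overlapped, with the lowest of the 7 at 5.32 and the highest of the 3 at 5.34. ICAM1 averaged 8.60 in the 3 ND animals above 100 and 9.23 in the 7 low-numbered ones. VCAM1 by contrast averaged 11.4 in the 7 low-numbered ND animals, close to its level in the 3 others. Whether the split by number alters the group effect was not tested.

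**Figure D2:**
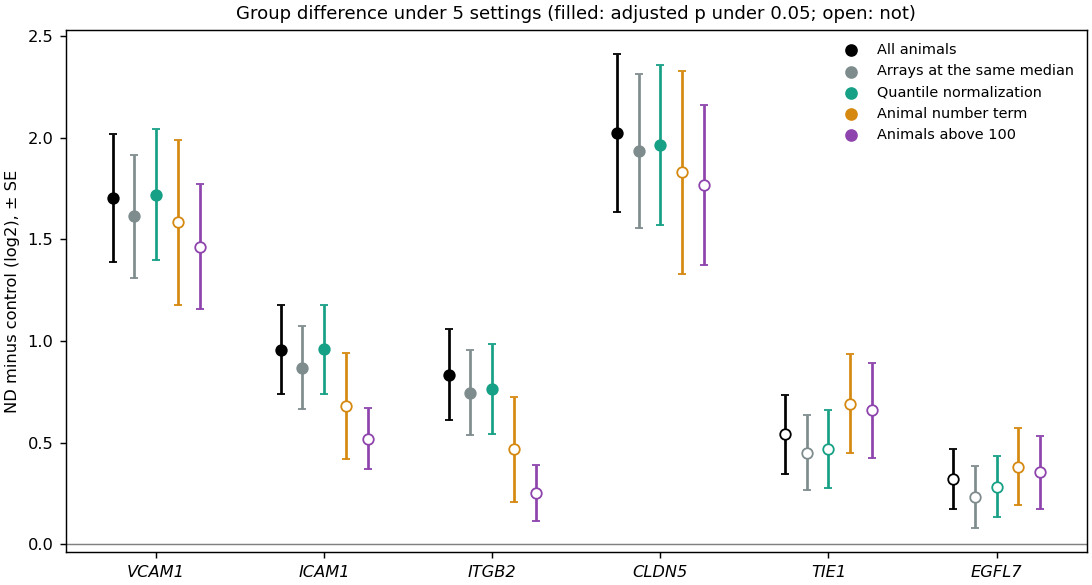
ND minus control difference (y axis, log2, ± SE) of each gene under 5 settings, filled where the adjusted p was under 0.05. VCAM1, ICAM1, ITGB2 and CLDN5 passed with all animals and under both scalings, and no gene passed with the animal number term or among animals above 100.

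Within ND kidneys 5 of the 15 gene pairs covaried, all among VCAM1, ICAM1, CLDN5 and TIE1. Of the 15 pairs 14 had a positive Pearson r over the 10 ND animals, and 5 passed (permutation test, two-sided, Benjamini-Hochberg over 15 pairs). ICAM1 and CLDN5 had r = 0.891 (rho = 0.758; adjusted permutation p = 0.0114), and VCAM1 and CLDN5 had r = 0.841 (rho = 0.697; adjusted permutation p = 0.0114). VCAM1 correlated with ICAM1 at r = 0.804 (rho = 0.600) and with TIE1 at r = 0.799 (rho = 0.830), and CLDN5 with TIE1 at r = 0.798 (rho = 0.661), with adjusted permutation p-values of 0.0180, 0.0214 and 0.0180. By rank none of the 15 passed after adjustment, with an unadjusted permutation p for rho of 0.00469 for VCAM1 and TIE1. The share of pairs that pass among all genes in ND was not computed. High coefficients were not particular to these pairs. Of 5647 other genes above background in ND, 103 had r above 0.9 with ICAM1 and 89 with CLDN5, higher than any of the 15 pairs.

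How far the 5 relations rested on extreme animals differed with the animals left out. Without the 2 animals farthest from the median of the first gene, the coefficient was 0.627 for ICAM1 and CLDN5, 0.564 for VCAM1 and CLDN5, 0.490 for VCAM1 and ICAM1, 0.547 for VCAM1 and TIE1 and 0.583 for CLDN5 and TIE1, and none passed (adjusted permutation p 0.471 to 0.565). The animals left out were ND_31 and ND_47 for pairs led by VCAM1 or CLDN5, and ND_47 and ND_100 for ICAM1 and CLDN5. Without the 2 animals farthest from the median of the second gene instead, the coefficient was 0.592 for ICAM1 and CLDN5 and 0.564 for VCAM1 and CLDN5, but 0.718 for VCAM1 and ICAM1, 0.906 for VCAM1 and TIE1 and 0.765 for CLDN5 and TIE1. Leaving out ND_31 alone left none of the 15 pairs past the threshold, though the 5 coefficients lay between 0.718 and 0.866 (adjusted permutation p 0.0690 to 0.0886). Without ND_47 alone they lay between 0.638 and 0.754, and none passed (adjusted permutation p 0.132 to 0.191). Leaving out any other single ND animal left 5 or 6 of the 15 pairs. Among the 7 ND animals numbered up to 100, 6 pairs passed, with r between 0.853 and 0.972 (permutation test). These were the same 5 pairs and ICAM1 with TIE1. By rank 2 pairs passed in these 7 animals, and without the 2 animals farthest from the median of the first gene 0 did. The 7 animals include ND_31, ND_47 and ND_92. The 3 ND animals above 100 are too few for a coefficient.

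ND_47 was among the 3 highest ND animals for all 6 genes and ND_92 for 5, the exception being ITGB2. ND_31 was among the 3 lowest for all 6, and it was the 1 ND animal that exceeded the highest control for none of them. ND_22 was mixed, with the highest ITGB2 and the lowest EGFL7 of the ND group. Over 11 lists of other genes, ND_47 had the highest ND mean for 8, the exceptions being the angiopoietin, Notch and kidney epithelium lists, and for the last of these it was the lowest. ND_31 had the lowest ND mean of the endothelial adhesion, leukocyte integrin, junction, Notch and NF-kB lists, ND_198 that of the claudin, endothelial marker, leukocyte and platelet lists, and ND_100 that of the angiopoietin list.

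ITGB2 passed with none of the other 5 genes. Its coefficients in ND were 0.608 with ICAM1 (rho = 0.721; unadjusted permutation p for rho = 0.0235, adjusted 0.113), 0.525 with VCAM1, 0.406 with CLDN5, 0.314 with TIE1 and -0.198 with EGFL7 (permutation test). Without ND_47 its coefficient with CLDN5 was -0.04. EGFL7 passed with none of the other 5 genes either, its coefficients lying between -0.198 and 0.505.

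In controls none of the 15 pairs passed after adjustment, and 7 coefficients were positive. VCAM1 and ICAM1 had the highest, r = 0.783 (rho = 0.697; unadjusted permutation p = 0.00721, adjusted 0.108), followed by VCAM1 with TIE1 at 0.608 and CLDN5 with TIE1 at 0.603. Without Control_156 and Control_187 the coefficient of VCAM1 and ICAM1 was 0.406, and without Control_157 and Control_187 it was 0.907. ICAM1 and CLDN5, the closest pair in ND, had r = 0.113 in controls. That coefficient ran from -0.0495 without Control_156 to 0.485 without Control_157, and it was 0.647 without Control_157 and Control_187. Differences between the coefficients of the groups were not tested.

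**Figure D3:**
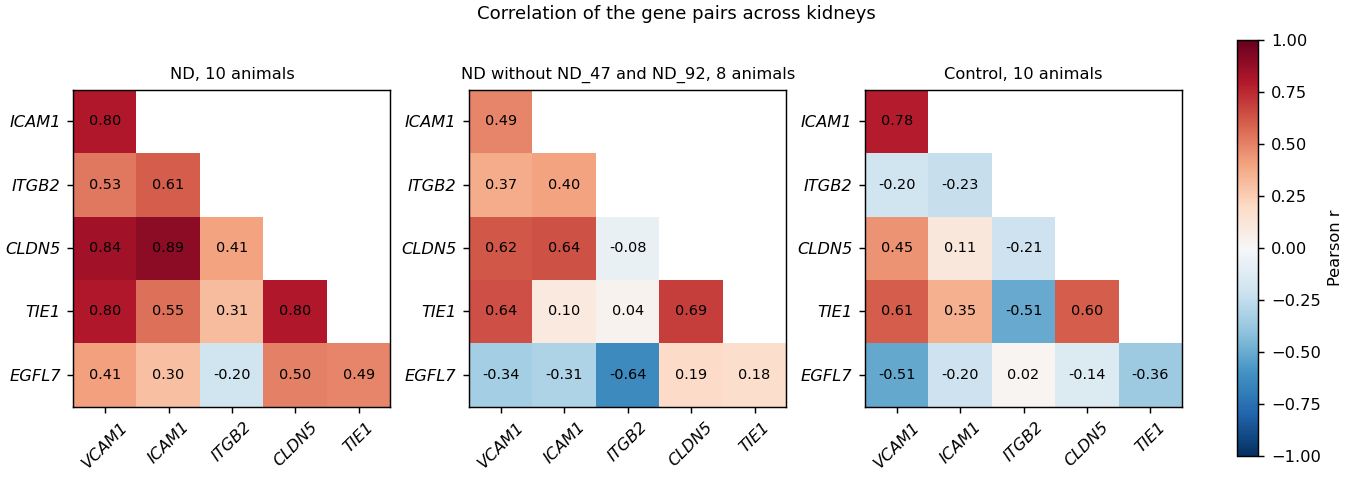
Pearson r of each pair across 10 ND kidneys, 8 ND kidneys without ND_47 and ND_92, and 10 control kidneys (colour and printed value). The 5 coefficients near 0.8 or above in ND all involve VCAM1 or CLDN5, and without the 2 animals the highest is 0.694, for CLDN5 and TIE1.

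**Figure D4:**
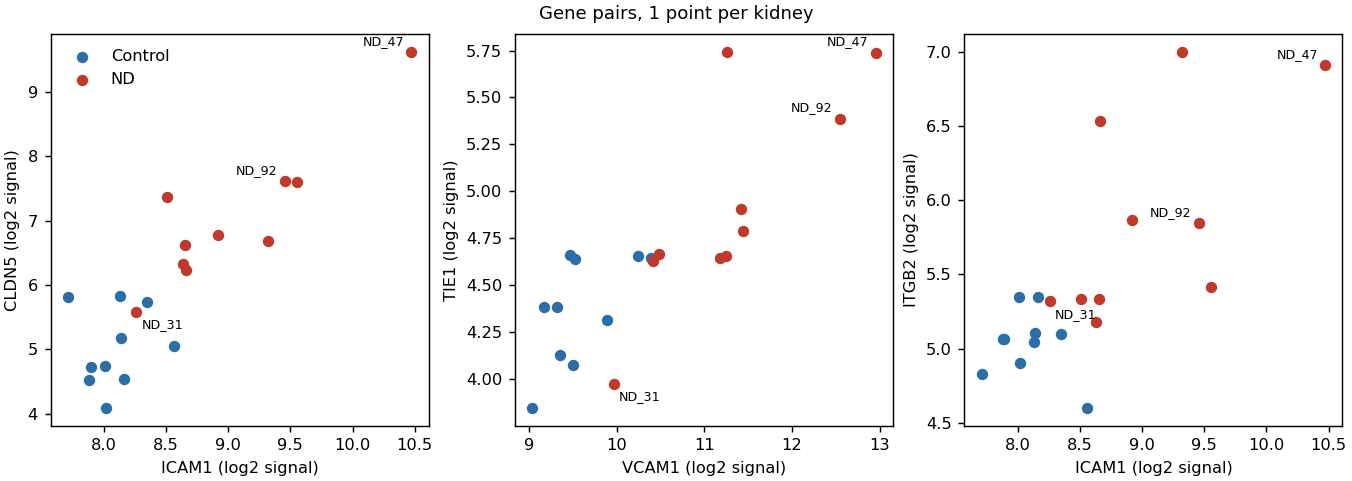
Log2 signals of 3 gene pairs (ICAM1 with CLDN5, VCAM1 with TIE1, ICAM1 with ITGB2), 1 point per kidney, control in blue and ND in red. ND_47 lies at the upper right of each panel, and in the panel of ICAM1 and CLDN5 the ND points rise together from ND_31 at the lower end.

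The genes whose ND profiles were most like those of the 6 are given as a description, from 5647 genes above background in ND and over 10 animals that share the same extreme values. For VCAM1 they were SNX22 (r = 0.958), the epithelial transcription factor EHF (0.953) and the complement regulator CD59 (0.947). For ICAM1 they were the tubulin gene TUBA1B (0.968), C1H9orf16 (0.967) and the histidyl-tRNA synthetase gene HARS (0.966), and 103 genes had r above 0.9. For CLDN5 they were the interleukin 1 receptor gene IL1R1 (0.976), the asparaginyl-tRNA synthetase gene NARS (0.963) and ACSL4 (0.961), with 89 genes above 0.9. IL1R1 and CLDN5 had r = 0.924 in the 8 ND animals without ND_47 and ND_92, and -0.03 in controls.

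The profiles closest to ITGB2 were those of the immunoproteasome gene PSMB8 (r = 0.957), PLEK, encoding pleckstrin of platelets and leukocytes (0.947), and CORO1A, encoding a leukocyte actin-binding protein (0.942), and 9 genes exceeded 0.9. Without ND_47 and ND_92 these coefficients were 0.950, 0.976 and 0.952, in animals that were also used to pick the genes. In controls the coefficients with ITGB2 were 0.640 for PSMB8, 0.02 for PLEK and 0.391 for CORO1A. TIE1 was closest to GUSB (0.937), PDIA4 (0.918) and OAT (0.911), and EGFL7 to MARK3 (0.929), ACBD3 (0.905) and WDR82 (0.878), with 4 and 2 genes above 0.9.

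The wider pathway was read from 11 lists, without the 6 genes. Of 96 listed genes that were measured, 12 rose and 3 fell (15.6%), where 9.99% of all genes passed. Their median difference was 0.11. The leukocyte list alone held 7 of these 15 calls among its 17 measured genes. The lists were chosen with earlier results of these data known, so the pooled share is not a test against all genes. With the animal number term 2 of the 96 passed, TNIP1 and CD163.

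Among other endothelial adhesion molecules 2 of 12 rose, none fell and 10 did not pass, with a list median of 0.22. ALCAM, an immunoglobulin-type adhesion molecule that binds CD6 on T cells, rose by 0.39 ± 0.08 (SE; adjusted p = 0.00554), from 10.97 to 11.37, and a dimmer probe set of it rose as well (0.48). Its 2 dimmest probe sets did not pass (0.145, adjusted p = 0.462, and -0.0359, adjusted p = 0.170). CD99, which acts when leukocytes pass between endothelial cells, was called at 0.41 (adjusted p = 0.0400). That call was lost without ND_01, ND_22, ND_86, ND_92 or ND_194 or Control_02, Control_155, Control_157, Control_184, Control_187, Control_190 or Control_197 (adjusted p up to 0.0744).

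MCAM (CD146 of endothelium and mural cells) was at 1.22 with an adjusted p of 0.0807. It passed without ND_22 (adjusted p = 0.0360) and with equal array medians (adjusted p = 0.0490), where 36.6% of all probe sets passed. It did not pass with array weights (0.86, adjusted p = 0.122) or with the animal number term (0.96, adjusted p = 0.473). Its dimmer probe set did not pass either (0.94, adjusted p = 0.166). E-selectin, SELE, on which leukocytes roll, exceeded background on 5 ND arrays and no control array, with lowest, median and highest ND signals of 2.32, 2.65 and 6.96 (adjusted p = 0.142). P-selectin, SELP, was above background on 2 ND arrays and no control (adjusted p = 0.229). MADCAM1 was at background throughout.

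Of the leukocyte integrins and selectin ligands 6 of 19 were measured and 1 rose, VAV1, an exchange factor downstream of leukocyte receptors (0.54 ± 0.16, SE; adjusted p = 0.0485). VAV1 lost its call without ND_01, ND_31, ND_47, ND_100 or ND_194 or Control_02, Control_134, Control_155, Control_157, Control_184, Control_187, Control_190, Control_197 or Control_199 (adjusted p up to 0.0840), with quantile normalization (adjusted p = 0.0551) and with the trended variance (adjusted p = 0.0546). ITGAM, an alpha chain that pairs with ITGB2, read at background on every array, as did ITGB7. ITGB1, a chain of the integrin that binds VCAM1, was at 0.07 (95% interval -0.10 to 0.25; adjusted p = 0.528).

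No gene of the 11 junction proteins or the 8 other claudins passed. An unadjusted limma p under 0.05 was found for 2 and 3 of them, where 30.1% of all genes had one. In the junction list GJA5, encoding a gap junction protein of arterial endothelium, was at 0.73 (adjusted p = 0.134) and passed without ND_31 (adjusted p = 0.00928). CTNNB1 (beta-catenin) was at 0.19 (adjusted p = 0.142) and the tight junction gene OCLN at 0.28 (adjusted p = 0.236). The endothelial cadherin gene CDH5 was at 0.26 (95% interval -0.27 to 0.79; adjusted p = 0.467). The claudin list had the highest median of the 11, 0.47. In it CLDN4 of the distal nephron was at 0.90 (adjusted p = 0.120), CLDN12 at 0.87 (adjusted p = 0.161) and CLDN3 at 0.51 (adjusted p = 0.165), with CLDN3 at background on all controls.

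In the angiopoietin and VEGF systems, in which TIE1 acts, none of 8 genes passed. Of the 8, 1 had an unadjusted limma p under 0.05, as did 30.1% of all genes. TEK, the angiopoietin receptor that TIE1 modulates, was at -0.53 (95% interval -1.19 to 0.14; adjusted p = 0.253). Its ligand genes were at 0.52 (ANGPT1, adjusted p = 0.234) and 0.51 (ANGPT2, adjusted p = 0.239), and NRP2 at -0.08 (adjusted p = 0.120).

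In the Notch pathway, with which EGFL7 interacts, 1 of 7 genes rose and 1 fell. DLL4, the endothelial Notch ligand gene, averaged 6.22 ± 0.48 in ND kidneys and 5.37 ± 0.51 in control kidneys (SD, 10 animals each), a rise of 0.85 ± 0.22 (SE; adjusted p = 0.0207), and 7 ND animals lay above the highest control. NOTCH4, the endothelial Notch receptor gene, fell from a mean of 7.34 to 6.71, a difference of -0.62 ± 0.15 (SE; adjusted p = 0.0137). The target gene HES1 was at 0.43 (adjusted p = 0.184). DLL4 and NOTCH4 kept their calls when any single animal was left out. With the animal number term both lost them (DLL4 0.88, adjusted p = 0.121, and NOTCH4 -0.67, adjusted p = 0.0765).

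Of 18 endothelial cell markers 1 rose and none fell, with a median of 0.04. ECSCR, an endothelial surface protein gene, rose by 1.48 ± 0.39 (SE; adjusted p = 0.0259), with 8 ND animals above the highest control. Its call was lost without Control_190 (adjusted p = 0.0505), and its dimmer probe set did not pass (0.63, adjusted p = 0.233). The pan-endothelial genes PECAM1 (0.22, adjusted p = 0.272) and VWF (0.12, adjusted p = 0.717) did not pass. The summed log2 signal of the list ran from 101 to 129 in ND and from 102 to 112 in controls, and KDR and CALCRL were at background on all arrays. The part of endothelial cell number in the CLDN5 and VCAM1 results was not tested.

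Of 8 NF-kB components, receptors and feedback genes 1 rose. TNIP1, encoding a partner of the NF-kB inhibitor A20, rose by 0.57 ± 0.08 (SE; adjusted p = 0.000278), with 9 ND animals above the highest control, and kept its call with the animal number term (0.59, adjusted p = 0.00505). Its 2 dimmer probe sets did not pass (0.22 and -0.06). IKBKG was at -0.45 (adjusted p = 0.0554), passing without ND_100, ND_193 or Control_134, under both scalings, without dim probe sets and with array weights (adjusted p as low as 0.0167), and TNFRSF1B at 0.69 (adjusted p = 0.115), passing without ND_193 (adjusted p = 0.0477).

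LAPTM5 (1.11, adjusted p = 0.00375) and LCP1 (0.86, adjusted p = 0.0100) were the leukocyte markers with the smallest p after CD163 (adjusted p = 0.00194), though their dimmer probe sets did not pass. None of 4 platelet markers passed, with ITGB3 at 0.86 (adjusted p = 0.153), ITGA2B at 0.06 (adjusted p = 0.609) and PPBP at -0.05 (adjusted p = 0.254), the last at background on all arrays. Of the 4, 1 had an unadjusted limma p under 0.05, as did 30.1% of all genes. Among the epithelial markers PCK1 (gluconeogenesis) fell by 0.66 (adjusted p = 0.0222), a call lost with array weights (adjusted p = 0.0503). KCNJ1 was at -0.50 (adjusted p = 0.0758), passing without ND_92 (adjusted p = 0.0333) and with equal array medians (adjusted p = 0.0202).

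**Figure D5:**
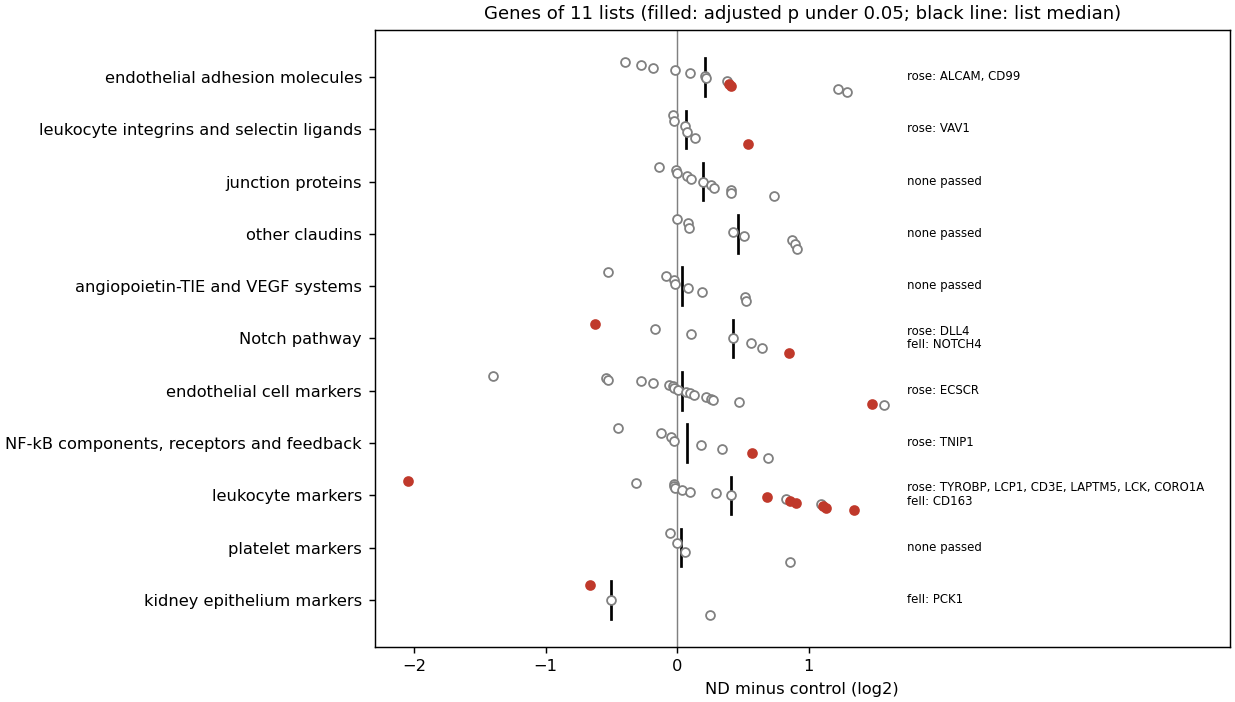
ND minus control differences (x axis, log2) of the measured genes of 11 lists, 1 point per gene, filled where the adjusted p was under 0.05, with the list median as a black line and the genes that passed named at the right. No junction protein, other claudin, angiopoietin or platelet gene passed.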

How the data were processed

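Kidney RNA of 20 pigs was hybridized to 1-colour arrays, 1 per animal, from 250 ng of total RNA per the labels' protocols. The authors deposited log2 values, 1 for every probe set of an array. This unit was inferred from the range of 0.88 to 16.2, and the background correction, summarization and normalization are not given in the sources used here. Groups and animal numbers came from the sample titles. Nothing in the labels names a batch. Of 24123 probe sets 124 controls were left out. Gene names came from the platform annotation: 10069 probe sets had 1 symbol, 198 several and 13732 none. All 6 genes matched a RefSeq Entrez ID with no change of symbol. The table gives no coordinates or probe sequences. For a gene with several probe sets the one brightest on average was used. Background was the highest value, 2.79, of 23 tag and tryptophan control probe sets.

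All probe sets were fitted with limma 3.58.1 (lmFit, eBayes without trend) in R 4.3.3, without covariates. Correlations used SciPy 1.17.1 and permutation tests with 100000 resamples. On simulated data with the group sizes of this comparison, over 23999 probe sets, 38.8% of 67 changes of 1.41-fold, 77.6% of 67 of 2-fold and 97.0% of 66 of 4-fold were recovered, with 10 false calls. The simulation drew probe sets independently, with the same SD in both groups, and changed only probe sets with a mean above 4. In the data genes covary and spreads differ between groups, so these figures are not rates for the real comparison. The genes and lists were chosen with earlier results of these data known. Named genes are the 6, the 3 smallest p-values per list, all that passed where 6 or fewer did, and the 3 most alike profiles per gene. PTPRC, SELE, SELP, MADCAM1, ITGB1, CDH5, TEK, PECAM1, VWF and the markers at background on all arrays were named after their values were seen. The alternatives tried were other scalings, removal of dim probe sets, a trended and robust variance, weighting of arrays, animal number, permutation tests and leaving out single animals. Genes of the leukocyte list that passed were also named after their values were seen. The subset numbered above 100, its exact test and the pair left out together (ND_47, ND_92) were added after seeing the data.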

Additional observations from a re-analysis of the deposited data

Results flagged for a closer look

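In 11 of 78 groups of 10 animals examined (39 named genes in ND and in controls) an end animal stood apart from its group by a Dixon test at the 95% level, which chance alone gives in about 5% of groups of normal values. The 39 genes were read in the same animals, so the groups are not independent and the 11 are not a test against that share. ND_47 was the animal for CLDN5 (9.62, next 7.61), for ECSCR (9.10, next 6.97) and, as the lowest, for ALCAM (11.04, next 11.26). ND_31 was the lowest for GJA5 (5.83, next 7.49) and for NOTCH4 (5.85, next 6.48). In controls the highest animals were Control_197 for CTNNB1 (13.6, next 13.4) and PROCR (4.67, next 3.96), Control_02 for ANGPT2 (3.80, next 3.29), Control_190 for NRP2 (3.08, next 2.91), Control_199 for PPBP (2.45, next 2.29, both below background) and Control_134 for KCNJ1 (11.3, next 10.8). Values without these animals are in the leave-out ranges; without ND_47 the rise of CLDN5 was 1.74 and that of ECSCR 1.16, and without ND_31 the fall of NOTCH4 was -0.53.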

How the results depend on the processing

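VCAM1, ICAM1, ITGB2 and CLDN5 kept their direction and call under both scalings, the filter on dim probe sets, the trended variance model and array weights, and TIE1 and EGFL7 did not pass under any of these. No paired analysis was possible because the groups share no animal number. With the animal number term the 4 rises were 1.58, 0.68, 0.47 and 1.83 (VCAM1, ICAM1, ITGB2, CLDN5), among the 3 ND and 5 controls with the highest numbers 1.47, 0.45, 0.20 and 1.84, and among those above 100 1.46, 0.52, 0.25 and 1.77, and under each of the 3 settings 0 of the 6 genes passed. In the exact permutation test above 100, ITGB2 (0.25) and EGFL7 (0.35) missed an unadjusted 0.05 that they met in limma on all animals. Leaving out single animals gave 3 to 5 called genes, with ITGB2 between 0.71 and 0.91 and TIE1 between 0.45 and 0.64.

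Probe sets called numbered 505 (179 higher, 326 lower) with the number term, 57 (19 and 38) among the highest numbers, 267 (92 and 175) above 100 and 8789 (7728 lower) with arrays at the same median; leaving out single animals gave 1295 to 2303 (615 to 1244 lower). The listed genes called were 15, against 2, 0, 4 and 34 under these settings. Of all 15 pairs, 5 of which passed, 0 passed with Spearman rho, without the 2 animals farthest for the first gene, in control arrays or without ND_47 and ND_92, and 0 to 6 passed without single ND animals; the 6 included ICAM1 with ITGB2 (without ND_100) or with TIE1 (without ND_194). Signs turned for ITGA2B (-0.0304 with equal medians, -0.0363 with quantiles), for CLDN3 (-0.0782), CLDN12 (-0.12) and TNFRSF1B (-0.10) among the highest numbers, and for ITGB7 (0.0016), CLDN3 (-0.10) and TNFRSF1B (-0.11) above 100. Without the 2 farthest animals r turned for ITGB2 with CLDN5 (-0.0177) and EGFL7 (0.0908). In controls r had the other sign for ITGB2 with VCAM1 (-0.198), ICAM1 (-0.230), CLDN5 (-0.206), TIE1 (-0.506) and EGFL7 (0.0171), and for EGFL7 with VCAM1 (-0.514), ICAM1 (-0.204), CLDN5 (-0.137) and TIE1 (-0.363). The first 2 of these signs depended on Control_187: without it r was 0.249 and 0.460, and rho over all controls was 0.0182 and 0.127. In ND without ND_47 and ND_92 r turned for EGFL7 with VCAM1 (-0.340) and ICAM1 (-0.310) and for ITGB2 with CLDN5 (-0.0777). Leaving out single ND animals ranged ITGB2 with CLDN5 from -0.0439 to 0.577 and with EGFL7 from -0.461 to 0.310. The subsets hold fewer animals and the number term overlaps with group; the cause of the other changes was not tested. Genes at background have only a bound.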

Other observations

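PROCR and THBD, the endothelial protein C receptor and thrombomodulin, which act together in activating protein C, had differences of opposite sign, with calls that depended on the setting. PROCR averaged 5.47 ± 1.90 in ND kidneys and 3.90 ± 0.31 in control kidneys (SD, 10 animals each), and its difference of 1.57 had an adjusted limma p of 0.106. THBD averaged 7.40 ± 1.42 and 8.81 ± 1.18 in the same order, a difference of -1.40 with an adjusted limma p of 0.123. Neither passed with the values as deposited. With equal array medians both did (PROCR 1.48, adjusted p = 0.0495, and THBD -1.49, adjusted p = 0.0490), but 36.6% of all probe sets passed there. With array weights THBD passed (-1.93, adjusted p = 0.0337) and PROCR did not (1.01, adjusted p = 0.137). With the animal number term neither passed (PROCR 0.90, adjusted limma p = 0.722, and THBD -1.87, adjusted limma p = 0.213).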
